A study of Mus musculus with 17 samples.

Results

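The comparison set cells without the microRNA gene Mir203 (KO) against wild-type cells (WT) late in reprogramming, at days 6 and 7. It used 4 of 17 libraries of mouse RNA, 1 for each genotype on each day. WT cells had the genotype given as miR-203 WT; OSKM and KO cells that given as miR-203 KO; OSKM. Both genotypes carried the same transgene for Oct4, Sox2, Klf4 and cMyc, switched on by doxycycline at 1 µg/ml, which by the labels was given over the whole process of about 2 weeks. The starting cells were mouse embryonic fibroblasts (MEFs) taken from the crossed animals, and each library is a whole culture, not a sorted fraction. The labels do not say how many embryos or lines stand behind a library. The other libraries of both genotypes came from MEF, day 0, day 4 and induced pluripotent stem cells (iPSC). A further genotype, the knock-in (KI, ColA1_miR203; Rosa26rtTA; OSKM), makes miR-203 under doxycycline. Levels are in FPKM, a fragment count divided by transcript length and by sequencing depth, and differences are KO minus WT on the scale of log2(FPKM + 1), called log2 differences here. A gene belongs to the comparison if any of the 4 libraries had it at an FPKM of 5 or more and its difference had the same sign on both days. Of 38734 genes, 11202 reached that level, and 9750 of these were members, 6665 higher and 3085 lower in KO. The other 1452 genes went opposite ways on the 2 days or were equal on 1 of them, and only 40 of them differed by at least 1 (log2) in each direction. The sign was shared by 81.6% of the 566 genes whose highest FPKM was 5 to 6, just inside the limit, and by 83.2% of the 618 just outside it, at 4 to 5.

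A microRNA guides a silencing complex to messenger RNAs that carry a match to its seed, and lowers their stability or translation. MiR-203 is best known from skin, where it restrains the self-renewal of epidermal stem cells. Reprogramming of fibroblasts with OSKM passes through a loss of mesenchymal genes and a gain of epithelial genes before the pluripotency network becomes active. Cells that do not follow this course can keep or strengthen a fibroblast programme.

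The microRNA that sets the genotypes apart is encoded by a hairpin of 76 bases at chr12:112130880-112130955 on the plus strand (GRCm38.p6). The mature strands are shown because the 3p seed defines the target sites searched further on. Capitals mark the seed, bases 2 to 8, and the sequences are those of RefSeq.
mmu-miR-203-3p: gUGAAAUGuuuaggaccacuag
mmu-miR-203-5p: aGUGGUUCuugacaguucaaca
Mir203 itself was listed at 0 in all 4 libraries. A short hairpin is poorly captured in polyadenylated RNA, so these values do not check the deletion. The KI libraries listed Mir203 at 5863 and 5470 on days 6 and 7.

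The labelled cell type was checked with its markers. The fibroblast genes Col1a1, Vim and Thy1 were present in all 4 libraries, with Vim between 857 and 1079. The Y-linked Ddx3y lay between 16.6 and 20 and Xist between 0.485 and 3.23 in these libraries. WT day 4 stood apart with Xist at 48 and Ddx3y at 2.74, against 0 and 19.7 in KO day 4, and WT MEF stood apart likewise, with 46.9 and 0.0179. WT iPSC had Ddx3y at 1.51. These libraries enter the comparisons with other stages. Markers of macrophages, which are not fibroblasts, were high in the WT libraries and near 0 in KO. The sum of FPKM was 544692 and 563671 in WT and 627154 and 635354 in KO, and read depth is unknown.

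KO and WT cells differed across much of the transcriptome on both days. Epithelial, keratinocyte and pluripotency genes were far higher in KO, and most genes of the cell cycle and the ribosome were higher by a smaller amount. Macrophage genes were far lower, with a median log2 difference of -4.30. Most collagen, fibroblast and acute-phase genes were lower by a smaller amount, with list medians of -1.35, -0.87 and -1.11. By limma, with the difference of each day as an observation, 4108 genes (36.7% of 11202) were higher and 1533 (13.7%) were lower in KO at an adjusted p below 0.05. Since each genotype had 1 library per day, this test measures how well the 2 days repeat each other, not how cultures vary. The counts rest on both days, and far fewer genes were called when any late library was left out of a fit to 10 libraries. Without a test, 1657 genes (14.8%) were at least 1 (log2) higher on both days and 634 (5.66%) at least 1 lower. Both directions held protein-coding genes for the most part, 1512 and 579 of them.

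The middle of the distribution was shifted. The median log2 difference of the 11202 genes was 0.27 at day 6 and 0.35 at day 7, and 0.32 for the mean of both. Scaling the libraries by their median ratios brought it to 0.03 and changed the split of calls from 72.8% to 50.9% higher, with 2550 genes higher (22.8%) and 2461 lower (22%). All 2550 had been called higher before scaling, and all 1533 lower calls were kept. Counts within a list are read against these shares, 36.7% higher and 13.7% lower as deposited and 22.8% and 22% after scaling. List counts at an unadjusted p below 0.05 by limma are read against 4846 higher and 1906 lower of all 11202 genes. The median of a list is read against 0.27 and 0.35, and gene lists with medians between 0 and these values lie below the typical gene.

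**Figure D1:**
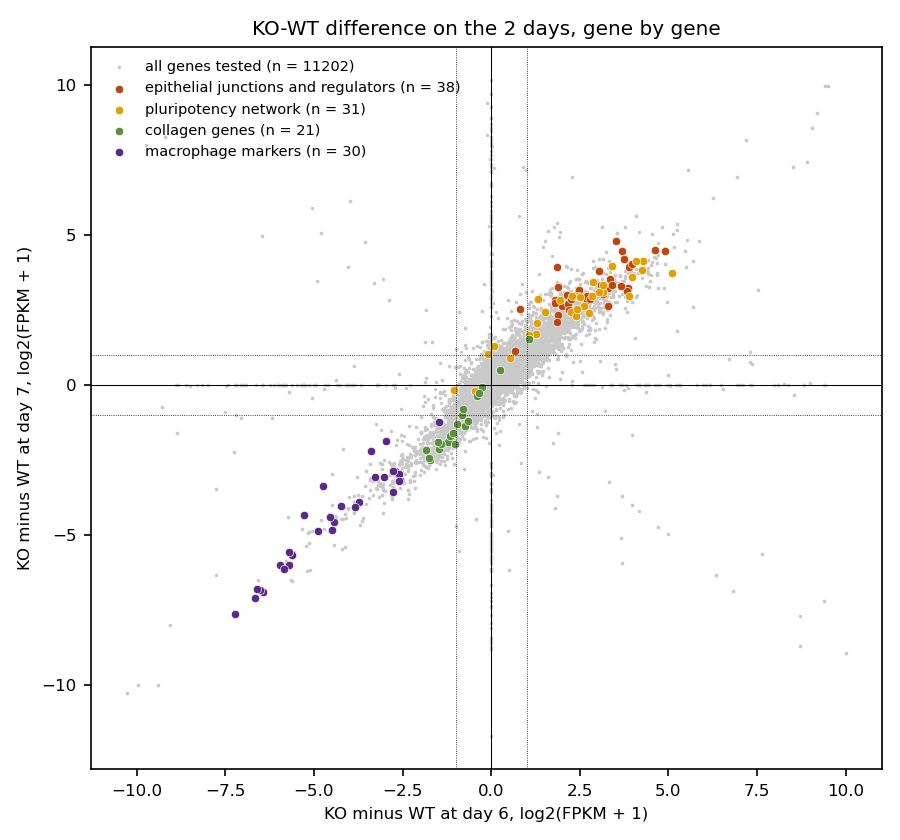
Log2 difference between KO and WT at day 6 (x axis) and day 7 (y axis), 1 point per gene, with dotted lines at differences of 1 and 4 gene lists in colour. Epithelial and pluripotency genes lie at the upper right and all 30 tested macrophage markers at the lower left, with medians of -4.46 and -4.21, while points along the axes are genes that hardly differed on 1 of the days.

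Among the 12 named genes with the largest increases in KO, most belong to surface epithelia. Predicted genes, clones, genes named only by a sequence identifier, pseudogenes and small RNAs were left out of the ranking in both directions. Slurp1, a secreted protein of the Ly6 family made by keratinocytes, had an FPKM of 12.2 and 16.6 in WT on days 6 and 7 and of 600.0 and 494 in KO. Its neighbours in a Ly6 gene cluster on chromosome 15 went the same way: Lypd2 was at 1.12 and 1.14 in WT and 79 and 75.7 in KO. Psca, also in this cluster, was at 0.487 and 4 in WT against 84.5 and 137 in KO. The mean log2 differences of the 3 genes were 5.16 ± 0.21, 5.20 ± 0.09 and 5.31 ± 0.31. The value after ± is here and below the standard error (SE) by limma, moderated over genes.

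Cnfn, a protein of the cornified envelope, was at 0.178 and 0 in WT and at 43.3 and 40.2 in KO, a log2 difference of 5.30 ± 0.14 (adjusted p = 0.0077). Klk10, a serine protease of epithelia, was at 4.84 and 16.5 in WT and 256 and 382 in KO. Krt18, a keratin of simple epithelia, was at 0.437 and 2.91 in WT and reached 23.2 and 193 in KO. These genes were thus close to undetected or low in WT and well expressed in KO. Cldn4 and Cldn6, which form tight junctions, were at 1.08 and 7.63 and at 0.696 and 6.66 in WT. In KO they were at 49.8 and 194 and at 49.7 and 168. Aqp5, a water channel of glands, Syt8, a synaptotagmin, and Sprr1a, a precursor of the cornified envelope, had mean differences between 4.58 and 4.71. Mylpf, a light chain of fast muscle myosin, had the largest mean, 5.35 ± 1.24, and also the largest error. It was at 1.53 and 67.9 in WT and 469 and 619 in KO, and its adjusted p of 0.044 became 0.052 with median-of-ratios scaling.

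All 12 named genes with the largest decreases in KO, with the same classes left out, are known from macrophages and other myeloid cells. Lyz2, lysozyme, had an FPKM of 2218 and 2649 in WT and of 13.9 and 12.3 in KO, a log2 difference of -7.43 ± 0.14 (moderated SE, adjusted p = 0.0063 by limma). Tyrobp, an adaptor of myeloid receptors, was at 213 and 287 in WT and 1.12 and 1.11 in KO. The 3 subunits of complement C1q had differences of -6.67 to -6.71, C1qa for example with 164 and 195 in WT and 0.907 and 0.636 in KO. The chemokine Ccl6, the macrophage receptor Emr1 (F4/80), the receptor subunit Fcer1g, the protease Ctss, the membrane proteins Ms4a6d and Ms4a7, and Wfdc17 had differences between -5.64 and -6.07. WT and KO values lay apart in all 12 genes, which follows from choosing the largest differences.

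**Figure D2:**
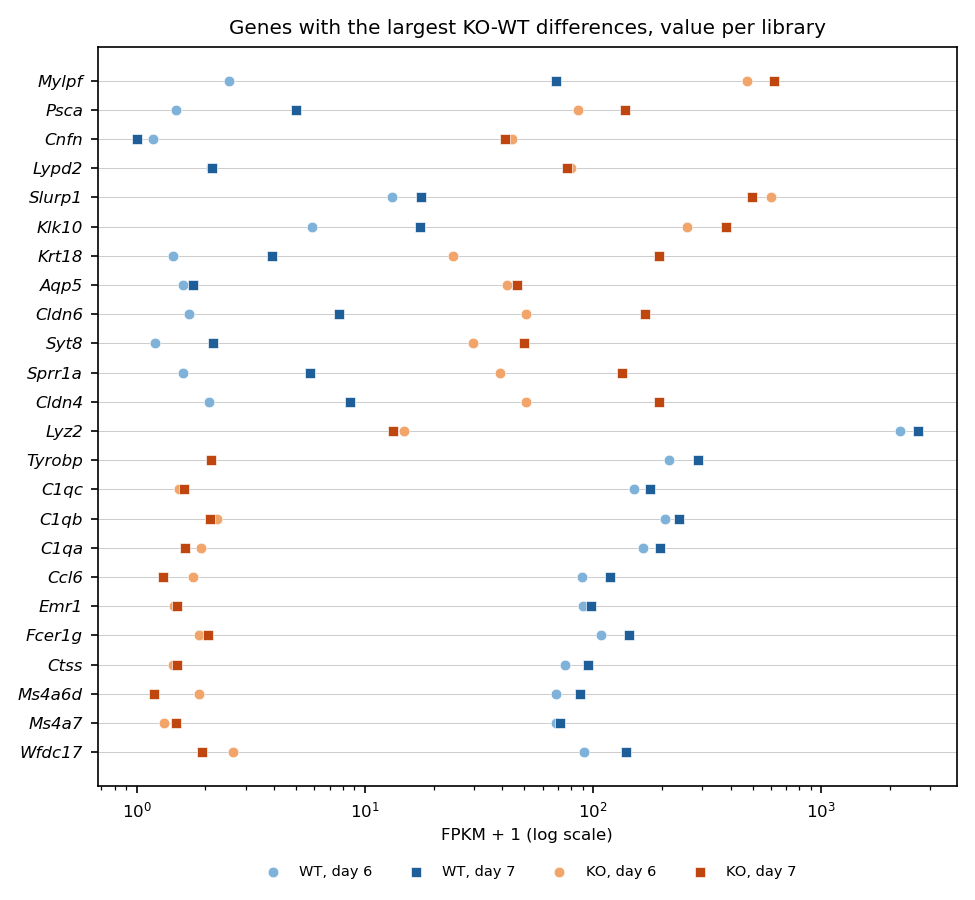
FPKM + 1 on a log axis for the 12 named genes with the largest increases and the 12 with the largest decreases in KO, 1 symbol per library. The WT and KO symbols are apart for every gene, which follows from choosing the largest differences. Mylpf is the gene with the widest gap between the 2 WT days, 1.53 and 67.9.

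The list of macrophage markers moved as a block. All 30 tested markers were called lower, against 13.7% of all genes, and all 30 were at least 1 lower on both days, against 5.66%. Of them 25 reached an FPKM of 5 in WT alone and so could only be lower; the 5 that reached it in both genotypes were also called lower. Summed over the 30 genes FPKM was 4045 and 4838 in WT and 97.3 and 143 in KO, and 18 of the 33 measured markers were below 1 in both KO libraries. Spi1, the transcription factor PU.1 of myeloid cells, was at 26.4 and 38.1 in WT and 0.178 and 0.866 in KO. The smallest differences were those of Laptm5, a lysosomal protein of blood cells, with 116 and 123 in WT and 41 and 51.2 in KO. In bulk RNA fewer cells of a type and less RNA per cell cannot be told apart. The part of these cells in the other differences was not tested. Of 24 markers of neutrophils, mast cells and lymphocytes only Camp reached an FPKM of 5, with 4.16 and 5.11 in WT and 1.49 and 2.90 in KO (adjusted p = 0.09). Of 4 tested erythroid and megakaryocyte markers 1 was called higher and 2 lower (25% and 50%, against 36.7% and 13.7% of all genes). Their medians were -0.29 and -0.24, and 2 reached an FPKM of 5 in WT alone and 1 in KO alone. Over all 12 measured markers of this list 4 were above WT on both days and 2 below. The platelet chemokine Pf4 of this list, which macrophages also make, was at 37.2 and 30.4 in WT and 0.367 and 0.366 in KO.

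Promoters of these markers were searched for the core of the PU.1 motif, because they move together. The motif, with the letters GAGGAAG, was sought on both strands from 250 bases before to 50 bases after the gene start. It occurred in 12 of 22 matched macrophage promoters (54.5%) and in 3658 of 27025 promoters of all genes (13.5%). The motif was chosen with the results known, and a match is a description, not a binding site. The promoters of Ctss and Trem2, a lipid receptor of macrophages at 19.5 and 23.7 in WT and 0.417 and 0.466 in KO, are shown as examples, with the match in capitals (RefSeq, GRCm38.p6, in the direction of the gene). They lie at chr3:95526536-95526835 and chr17:48346151-48346450, both on the plus strand.
Ctss: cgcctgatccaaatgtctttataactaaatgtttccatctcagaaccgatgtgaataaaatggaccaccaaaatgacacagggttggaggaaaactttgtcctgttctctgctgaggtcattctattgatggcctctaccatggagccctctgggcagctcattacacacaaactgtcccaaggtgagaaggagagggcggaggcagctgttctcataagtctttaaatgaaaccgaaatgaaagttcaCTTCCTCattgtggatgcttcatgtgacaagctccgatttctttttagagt
Trem2: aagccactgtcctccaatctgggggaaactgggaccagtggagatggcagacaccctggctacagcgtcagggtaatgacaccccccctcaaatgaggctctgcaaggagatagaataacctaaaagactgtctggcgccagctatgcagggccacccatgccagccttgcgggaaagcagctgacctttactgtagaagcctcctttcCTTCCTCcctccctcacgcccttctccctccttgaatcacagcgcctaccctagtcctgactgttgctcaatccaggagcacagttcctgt

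The 4 reprogramming factors were all higher in KO. Pou5f1 (Oct4), the core regulator of pluripotency, was at 37.4 and 85.3 in WT and 852 and 954 in KO, a log2 difference of 3.97 ± 0.30 (adjusted p = 0.01). Sox2, its partner, was at 2.26 and 3.63 in WT and 31.5 and 37.9 in KO. Myc, which promotes cell growth, stood at 15.8 and 19.3 against 113 and 119.7, and Klf4, which activates epithelial and pluripotency genes, at 31.5 and 34.7 against 111 and 117. The table does not separate RNA of the transgene from that of the cells' own genes, so a difference in the cassette and one in the endogenous genes cannot be told apart.

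Genes of the pluripotency network went the same way from low levels. Of 44 listed genes 39 were higher in KO on both days and 2 were lower, with medians of 1.54 and 2.33 over all 44. The test could use 31, and 24 of them were called higher and none lower by limma (36.7% and 13.7% of all genes). At an unadjusted p below 0.05 by limma the counts were 25 and 0, against 4846 and 1906 of all 11202 genes. As 19 of the 31 reached an FPKM of 5 in KO alone, the count among the 11 that reached it in both genotypes is also given: 9 higher. Dppa5a, an RNA-binding protein of pluripotent cells, was at 2.86 and 38.5 in WT and 131 and 521 in KO. Lefty2, an inhibitor of Nodal, was at 0.338 and 2.02 against 13.3 and 45.6, and L1td1 at 3.20 and 6.68 against 64.7 and 92.1.

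In Dppa5a, Lefty2 and L1td1 both genotypes gained from day 6 to day 7. Nanog, a central factor of the network, was still low in KO, at 5.49 and 10.7 against 1.71 and 2.61 in WT, while iPSC held 171 and 156 in WT and KO. Esrrb, a nuclear receptor of naive cells, was at 1.66 and 5.84 in KO and 0.278 and 1.17 in WT and missed the threshold (adjusted p = 0.14). Klf2 was at 7.04 and 7.20 in WT and 2.88 and 6.21 in KO (adjusted p = 0.16). Piwil2, a germline gene of the piRNA pathway, was at 1.17 and 3.19 in WT and 19.6 and 27.5 in KO, and it was the only one of 22 germline genes to reach an FPKM of 5.

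Genes of epithelial junctions and their regulators were higher in KO throughout the list. All 42 listed genes were above WT on both days, with medians of 2.70 and 3.06. Of 38 tested genes 33 were called higher (86.8% against 36.7% of all genes) and 36 were at least 1 higher on both days. Of the 38, 30 reached the minimum in KO alone and so could hardly be other than higher. All 8 that reached it in both genotypes were called. Cdh1, E-cadherin, was at 2 and 5.59 in WT and 57.4 and 115 in KO, a log2 difference of 4.21 ± 0.10 (adjusted p = 0.0069). Epcam, an adhesion molecule, was at 2.69 and 7.24 against 68.7 and 115. Cldn3 and Cldn7 of tight junctions reached 51.6 and 77.6 in KO at day 7, from 0.896 and 3.30 in WT.

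Regulators of epithelial genes were also measured. Esrp1, a splicing factor of epithelia, was at 0.215 and 0.534 in WT and 4.51 and 8.97 in KO. Ovol1, a repressor of mesenchymal genes, was at 0.298 and 0.677 against 4.97 and 8.40. Both were called higher. Grhl2, an activator of junction genes, was at 0.110 and 0.338 against 2.87 and 8.39 and missed the threshold (2.31 ± 0.61, adjusted p = 0.056). Ehf, an ETS factor of epithelia, was unlike the others in being higher in KO at day 6 (32.5) than at day 7 (27.7), with 2.40 and 3.67 in WT. The promoter motif of Grainyhead factors, with the letters AACCNGTT, occurred in 2 of 20 matched epithelial promoters (10%), those of Rab25 and Cgn, and in 543 of all promoters (2.01%). The share of 10% rests on these 2 promoters alone. This motif too was chosen with the results known, and a match is not a binding site.

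Keratins and genes of the epidermis followed. Of the simple keratins Krt8 was at 10.9 and 28.3 in WT and 312 and 579 in KO, and Krt19 at 2.30 and 5.20 against 26.3 and 112. Among 38 keratinocyte genes 34 were above WT on both days and none was below. Of 18 tested genes 17 were called higher (94.4% against 36.7% of all genes). Of the 18, 10 reached an FPKM of 5 in KO alone and so could hardly be other than higher. All 8 that reached it in both genotypes were called. Krt14, the keratin of basal keratinocytes, was at 5.09 and 10.6 in WT and 157 and 154 in KO. Sfn (14-3-3 sigma) was at 6.57 and 16.1 against 191 and 282, and Itgb4, an integrin of hemidesmosomes, at 2.45 and 5.22 against 80.1 and 105. Krt5 and Trp63, also on this list, were low, with at most 0.922 and 1.61 in any of the 4 libraries.

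Fibroblast genes were lower in KO as a group but not without exception. Of 43 tested genes 27 were called lower (62.8%) and 6 higher (14%), against 13.7% and 36.7% of all genes. The medians were -0.64 and -1.08 against 0.27 and 0.35 for all genes. Fmod, a proteoglycan of tendon and matrix, was at 139.7 and 143 in WT and 16 and 6.51 in KO. Mfap4, a protein of elastic fibres, was at 535 and 593 against 75.4 and 41.2, and Pdgfra, the receptor that marks fibroblasts, at 121 and 126 against 29.1 and 27. For these genes the KO values lay far below the WT values and fell further at day 7, except for Pdgfra, which stayed level.

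Other genes of the list differed less or in the other direction. Vim was at 863 and 857 in WT and 1079 and 936 in KO, and the factors Prrx1, Twist1, Snai1 and Zeb1 missed the threshold, with adjusted p between 0.061 and 0.94. Zeb2, a repressor of Cdh1, was called lower, with 21.7 and 28.2 in WT and 8.90 and 6.26 in KO. Higher in KO were the surface proteins Thy1, Cd34 and Ly6a, Ly6a with 1288 and 1325 in WT and 2744 and 2641 in KO, besides S100a4, Osr2 and Eng.

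Of 21 tested collagen genes 17 were called lower (81%) and 1 higher (4.76%), against 13.7% and 36.7% of all genes. Their medians were -1.02 and -1.61. Col1a1 was at 6823 and 5243 in WT and 2037 and 921 in KO, a log2 difference of -2.13 ± 0.22 (adjusted p = 0.013). Col3a1 was at 6183 and 6177 against 2246 and 1398. Summed over the list collagen FPKM was 22158 and 19846 in WT and 7542 and 4442 in KO. The exception was Col18a1, a collagen of basement membranes, at 15.6 and 16.7 in WT and 33.5 and 49.5 in KO. Proteases of the matrix and their inhibitors were lower in 15 (68.2%) and higher in 2 of 22 cases, against 13.7% and 36.7% of all genes. Mmp9, which macrophages also make, was at 72.3 and 162 in WT and 4.89 and 5.95 in KO. Plaur, the urokinase receptor, was higher, with 14 and 17.4 against 63.5 and 99.7.

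Acute-phase and complement genes were lower in KO in 15 of 24 cases (62.5%) and higher in 1 (4.17%), against 13.7% and 36.7% of all genes. Saa3, a serum amyloid protein, was at 6286 and 10401 in WT and 908 and 795 in KO, a log2 difference of -3.25 ± 0.27 (adjusted p = 0.011). Reg3g, an antibacterial lectin, was at 1423 and 2352 against 81.4 and 54.1, and complement C3 at 379.7 and 547 against 158 and 139. WT gained and KO lost from day 6 to day 7 in these 3 genes. Saa1 was the exception, at 0.820 and 1.39 in WT and 4.86 and 12.7 in KO.

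Chemokines and cytokines were lower in 8 of 19 cases (42.1%) and higher in 2 (10.5%), against 13.7% and 36.7% of all genes. Cxcl12, which retains stem cells in their niche, was at 788 and 1163 in WT and 265 and 199 in KO, while Ccl2, an attractant of monocytes, was at 674 and 793 against 635 and 639 and missed the threshold (adjusted p = 0.18). Ptgs2, the inducible cyclooxygenase, was higher in KO, at 15.7 and 22.3 against 1.40 and 1.82. Of 22 interferon-stimulated genes 4 were higher (18.2%) and 6 lower (27.3%), with medians of -0.26 and -0.18. After median-of-ratios scaling 1 was higher and 9 were lower, against 22.8% and 22% of all genes. Of 11 genes of antigen presentation 5 were lower (45.5% against 13.7% of all genes) and none higher by limma. At an unadjusted p below 0.05 by limma 8 were lower and 0 higher, against 1906 and 4846 of all 11202 genes. B2m of this list was at 675 and 702 in WT and 397 and 342 in KO.

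Cell cycle and ribosomal protein genes were higher in KO. Of 40 tested cell cycle genes 33 were called higher (82.5% against 36.7% of all genes) and none lower by limma. At an unadjusted p below 0.05 by limma the counts were 36 and 0, against 4846 and 1906 of all 11202 genes. The medians of the cell cycle list were 0.95 and 1.24, and only E2f1 in it had negative differences (-0.04 and -0.10). Rrm2, a subunit of ribonucleotide reductase, was at 36 and 30.4 in WT and 129 and 118 in KO, and Ccnd1, cyclin D1, at 46.6 and 52.9 against 326 and 307. The proliferation marker Mki67 differed less, with 9.57 and 8.72 against 12.4 and 16.2 (adjusted p = 0.064). Of 31 ribosomal protein genes 30 were called higher (96.8% against 36.7% of all genes), with medians of 0.94 and 0.88. Rps18 for example was at 459.6 and 497 in WT and 1043 and 1167 in KO. Subunits of oxidative phosphorylation were higher in 22 of 29 cases, with medians of 0.57 and 0.55, or 75.9% against 36.7% of all genes. After median-of-ratios scaling the count was 6 of 29, near the 22.8% of all genes. Sdhc of complex II did not pass, at 248 and 252 in WT and 252 and 249 in KO.

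Glycolysis and hypoxia genes were higher in 16 (61.5%) and lower in 2 (7.69%) of 26 cases, against 36.7% and 13.7% of all genes. After scaling 16 were higher and 3 lower, against 22.8% and 22% of all genes. The glucose transporter Slc2a1 was at 14.2 and 21.1 in WT and 81.1 and 313 in KO, and Slc2a3 at 2.83 and 15.1 against 63.7 and 279.6. Egln3, a prolyl hydroxylase induced by hypoxia, was at 0.536 and 1.17 against 8.21 and 28.1. In these 3 genes KO was higher at day 7 than at day 6. Ldhb and Eno2 were the 2 lower genes as deposited. Cholesterol and fatty acid genes were higher in 16 of 26 cases (61.5% against 36.7% of all genes), and after scaling in 8 of 26, against 22.8%. Of 18 genes of the p53 and Cdkn2a barrier to reprogramming 7 were higher (38.9%) and 2 lower (11.1%), near the 36.7% and 13.7% of all genes. After scaling 4 were higher and 3 lower, against 22.8% and 22% of all genes. Trp53 was at 46.3 and 47 in WT and 98.8 and 111 in KO, and Cdkn2a at 84.8 and 90.1 against 183 and 162. Cdkn1c, an imprinted inhibitor of the cell cycle, was lower, at 101 and 104 against 15 and 24.9. The median of this list was positive as deposited (0.38 and 0.19) and -0.12 after scaling.

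Regulators of chromatin included genes of both directions. In the DNA methylation list 6 of 12 genes were called higher (50%) and 2 lower (16.7%), against 36.7% and 13.7% of all genes. Of the 12, 3 reached an FPKM of 5 in KO alone, and among the other 9 the counts were 4 higher and 2 lower. Uhrf1, which guides the maintenance enzyme, was at 14.5 and 13.4 in WT and 53.7 and 59.5 in KO. Dnmt3b, a de novo methyltransferase of embryonic cells, was at 0.624 and 1.27 against 4.65 and 13.3, whereas its relative Dnmt3a was lower, at 12.8 and 14.4 against 7.64 and 9.53. Tet2, which oxidises methylcytosine, was higher (2 and 2.71 against 11.6 and 13.8). Of 10 tested subunits and cofactors of polycomb repressive complex 2, 9 were called higher (90% against 36.7% of all genes) and 1, Phf1, lower. After scaling 5 were higher and 1 lower, against 22.8% and 22% of all genes. The catalytic subunit Ezh2 was at 8.60 and 6.62 in WT and 19.1 and 20.6 in KO, and Jarid2, a cofactor, at 3.65 and 3.91 against 12.2 and 25.5.

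HOX genes, which record the body position of the fibroblasts, were lower. Of 37 measured genes, 31 were below WT on both days and 4 above. By limma 9 of 13 tested genes were called lower and none higher (69.2% and 0%, against 13.7% and 36.7% of all genes). At an unadjusted p below 0.05 by limma 12 were lower and 0 higher, against 1906 and 4846 of all 11202 genes. Of the 13, 10 reached an FPKM of 5 in WT alone and so had to be lower, and of the 3 that reached it in both genotypes 2 were called. Hoxb9 was at 16.5 and 15.8 in WT and 3.91 and 2.86 in KO, and Hoxd13, of the distal limb, at 5.91 and 4.64 against 6.70 and 4.63. Imprinted genes were lower in 16 (66.7%) and higher in 4 (16.7%) of 24 cases, against 13.7% and 36.7% of all genes. Dlk1, an inhibitor of fat cell formation, was at 322 and 252 in WT and 35.1 and 17.9 in KO. Its neighbour Meg3 was at 502 and 441 against 184 and 111, and Plagl1, a zinc finger regulator of imprinted genes, at 228 and 231 against 33.1 and 19.3. Phlda2, a growth regulator of the placenta, was higher, with 0.649 and 1.63 against 22.8 and 33.6.

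Signals of mesenchyme were lower in KO. Of 18 Wnt pathway genes 11 were called lower (61.1% against 13.7% of all genes) and none higher by limma. At an unadjusted p below 0.05 by limma 11 were lower and 1 higher, against 1906 and 4846 of all 11202 genes. The receptor Lgr5 was at 77.7 and 64.4 in WT and 12.2 and 5 in KO, and the inhibitor Sfrp2 at 293 and 432 against 56.1 and 36.8. Of 25 genes of the TGF-beta and BMP pathways 15 were lower (60%) and 6 higher (24%), against 13.7% and 36.7% of all genes. The receptor Tgfbr2 was at 185 and 206 against 88.4 and 64.4, while Id1, a target of BMP signals, was higher, at 8.16 and 9.45 against 66.2 and 69.4. In the IGF axis 6 of 13 genes were lower (46.2%) and 3 higher (23.1%), against 13.7% and 36.7% of all genes. Igf1 was at 132 and 137 in WT and 14.6 and 9.96 in KO, and Igf2bp1, an RNA-binding protein of fetal cells, was higher, at 7.02 and 4.78 against 17 and 21.

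Markers of other lineages gave mixed results. Of 12 tested trophoblast genes 5 were called higher (41.7%), near the 36.7% of all genes. Of the 12, 9 reached an FPKM of 5 in KO alone, and of the other 3 only 1 was called. Tfap2c was at 0.355 and 0.539 in WT and 6.09 and 16.6 in KO, and Elf5 at 0.200 and 0.656 against 6.60 and 17. The defining factor Cdx2 stayed at 0.904 or less. Over all 19 extraembryonic endoderm genes the medians were -0.01 and 0.00, with 5 above WT on both days and 8 below. Of the 6 tested, 2 of which reached an FPKM of 5 in WT alone, 5 were called lower (83.3% against 13.7% of all genes), among them genes that fibroblasts also express, such as Dab2 (124 and 114 against 20.8 and 15.7) and Pdgfra. Over all 15 endothelial markers the medians were 0.00 and 0.01, with 5 above WT on both days and 4 below. The 4 of 6 tested genes called higher all reached an FPKM of 5 in KO alone and so had to be higher, Tie1 with 0.0547 and 0.567 in WT and 5.15 and 12.5 in KO, while Flt1 had negative differences on both days (-1.44 and -0.44). Over all 17 neural markers the medians were 0.00 and 0.00, with 6 above WT on both days and 5 below. Of the 4 tested, 3 were called higher and 1 lower (75% and 25%, against 36.7% and 13.7% of all genes). Of these 4, 1 reached an FPKM of 5 in KO alone. Stmn2, a neuronal tubulin regulator that was also at 174 and 98.2 in iPSC, was at 14.2 and 19.9 in WT against 208 and 156 in KO. Smooth muscle genes had medians of -0.13 and 0.03. Of 12 tested, 2 were called higher (16.7%) and 3 lower (25%), against 36.7% and 13.7% of all genes. After scaling none was higher and 5 were lower, against 22.8% and 22% of all genes, with a median of -0.35.

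**Figure D3:**
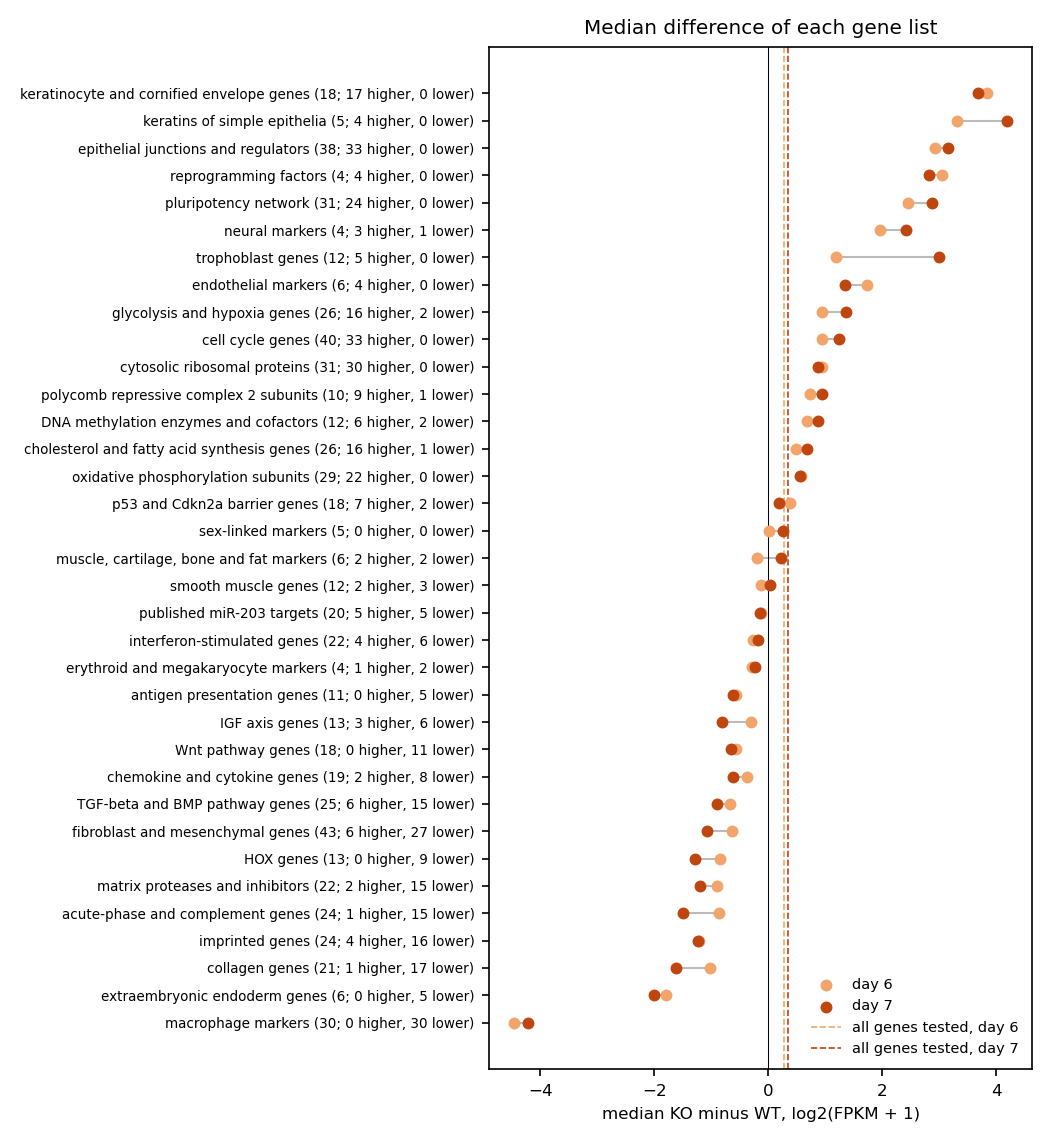
Median log2 difference between KO and WT for each gene list with at least 3 tested genes, at day 6 (light) and day 7 (dark), with the number of tested genes and of calls in brackets and dashed lines at the medians of all genes, 0.27 and 0.35. Keratinocyte, keratin and epithelial lists stand high, with medians of 2.92 to 4.19, and macrophage markers at the bottom; only tested genes enter, so lists of weakly expressed genes are represented by those that reached an FPKM of 5.

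More genes differed at day 7 than at day 6. At day 6 1850 genes were at least 1 (log2) higher and 768 at least 1 lower, of 10582 with an FPKM of 5 in 1 of that day's libraries. At day 7 these counts were 2370 and 1024 of 10870. Of the 634 genes lower by at least 1 on both days 487 had the larger difference at day 7, and of the 1657 higher ones 937 had. List medians at days 6 and 7 were -1.02 and -1.61 for collagens, -0.86 and -1.50 for acute-phase genes and 1.19 and 3 for trophoblast genes. Peg10, an imprinted gene of the placenta, turned round: it was at 33.9 in WT and 9.93 in KO at day 6, and at 33.3 and 92.1 at day 7. With 1 library per genotype and day the change between days has no test.

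At earlier stages the genes higher in KO were near their WT level. Of the 1657 genes at least 1 higher in KO at days 6 and 7, 31.5% were above WT in MEF, 30.5% at day 0 and 41% at day 4, against 46.6%, 47.3% and 45.7% of all genes. At day 4, 73 of them (4.41%) were at least 1 higher, close to the 4.46% of all genes. Slurp1 was at 297 in WT and 514 in KO at day 4, Krtdap at 136 and 133, Cdh1 at 13.1 and 15.1, and Pou5f1 at 266 and 255. In these 4 genes WT was below its own day 4 value at days 6 and 7.

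The 634 genes lower in KO were in part lower before. Of them 65.1% were below WT at day 4 and 29.7% were at least 1 below, against 4.96% of all genes. Macrophage markers had medians of -0.97 in MEF, -1.64 at day 0 and -3.50 at day 4, and Lyz2 was at 60.3 and 8.21 in WT and KO already in MEF. Collagens by contrast had medians of 0.22, 0.58 and -0.09 at these stages, and acute-phase genes of 0.11, 0.21 and 0.12.

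The change since day 4 was counted in each genotype for the genes at least 1 (log2) apart on both late days. These genes were chosen on the late values that the change uses, so the counts are a description. Of the 1657 genes higher in KO, 484 (29.2%) had risen by at least 1 in KO without falling by 1 in WT, 550 (33.2%) had fallen in WT without rising in KO, and 175 (10.6%) had done both. With or without a change in the other genotype, 39.8% of the 1657 had risen by at least 1 in KO and 43.8% had fallen in WT. The shares of all genes were 9.25% and 12.6%. The median change of the 1657 since day 4 was 0.83 in KO and -0.88 in WT, against 0.15 and -0.16 for all genes. Of the 634 genes lower in KO, 234 (36.9%) had risen in WT alone, 94 (14.8%) had fallen in KO alone and 55 (8.68%) had done both. With or without a change in the other genotype, 45.6% had risen in WT and 23.5% had fallen in KO, against 7.25% and 3.2% of all genes. Since the WT day 4 library differs from the later WT libraries in its Xist and Ddx3y levels, a change of cultures and a change with time cannot be told apart for WT.

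A test of the late against the earlier difference used the 10 WT and KO libraries before iPSC. The difference at days 6 and 7 was above that of MEF, day 0 and day 4 for 3253 of 11975 genes (27.2%) and below it for 1197 (10%), by limma at an adjusted p below 0.05. In the epithelial list 34 of 38 genes were above, in the cell cycle list 34 of 40 and among ribosomal proteins 29 of 31. In the fibroblast list 24 of 43 were below and 1 above, and of acute-phase genes 16 of 24 were below. This test uses again the late values that define the comparison, and the lists were chosen with earlier results known, so the list counts are a description. The 24 named genes were chosen on the late values that this test uses, so their own results in it are no further support. Of macrophage markers 9 of 30 were below, and Lyz2 did not pass (-2.73 ± 1.04, adjusted p = 0.094). The total of 4450 calls was 161 without the KO library of day 7, 295 without that of WT, and 1018 and 1071 without those of day 6.

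**Figure D4:**
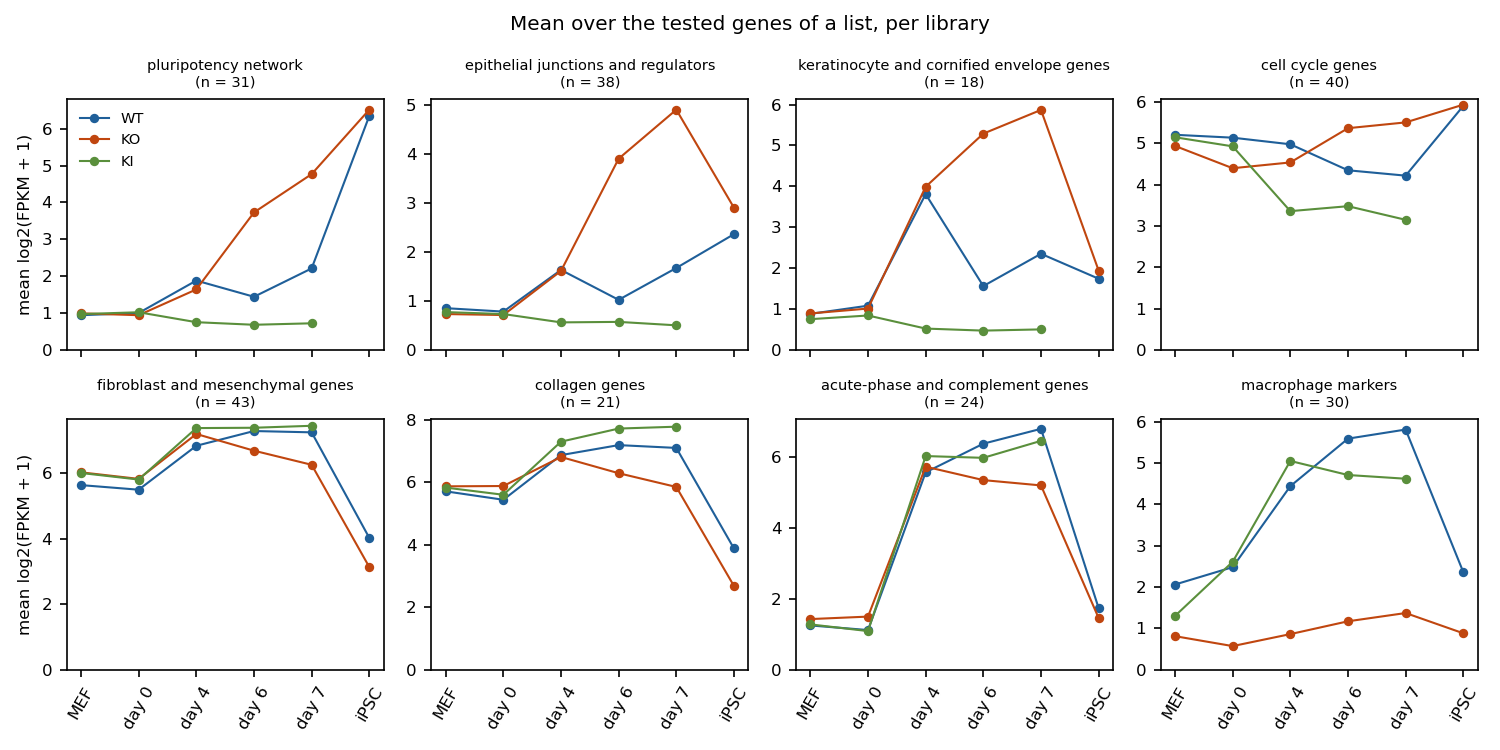
Mean log2(FPKM + 1) over the tested genes of 8 lists at each stage in WT, KO and KI. The pluripotency mean goes from 1.64 at day 4 to 4.77 at day 7 in KO and from 1.88 to 2.21 in WT, the fibroblast mean from 7.19 to 6.25 in KO and from 6.83 to 7.24 in WT, and the macrophage mean stays at 1.37 or less in KO.

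The genes higher in KO were in part those of iPSC. In 750 of the 1657 genes (45.3%) both iPSC libraries were at least 1 above the MEF library of their genotype, against 15% of all genes, and in 814 (49.1%) they were in neither direction. Of the 634 lower genes 191 (30.1%) were at least 1 below MEF in both iPSC libraries, against 13.6%. Between the iPSC libraries themselves the 1657 genes had a median KO-WT difference of -0.00, with 48.9% above 0. Epithelial and keratinocyte genes varied in iPSC. Krt14 was at 0.282 and 4.85 in WT and KO iPSC, Ehf at 0.218 and 0.204, and Cldn7 at 1.38 and 9.76. Cldn4 by contrast was at 20.3 and 33.3, and Slurp1 at 0.562 and 49.3. Summed over the 38 tested epithelial genes FPKM was 482 and 620.1 in WT and KO iPSC, against 131 and 1849 at day 7.

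KI values are set beside those of WT and KO, without a test since both contrasts share the WT libraries. The 4 reprogramming factors did not rise in KI as they did in WT and KO. Their mean log2(FPKM + 1) in KI was 2.48 in MEF, 2.89 at day 0 and 2.36 at day 4. At day 4 this mean was 6.31 in WT and 6.60 in KO, and the cause was not tested. Pou5f1 was at 0.491 and 0.675 in KI on days 6 and 7, Cdh1 at 0.0176 and 0.0396 and Krt8 at 0.0824 and 0.231, all below WT. Col1a1 was at 7323 and 6781, Mfap4 at 751 and 809 and Reg3g at 1402 and 2481, near or above WT. Macrophage RNA was present in KI, with Lyz2 at 1612 and 1601 and the summed FPKM of the markers at 2599 and 2508, between WT and KO. Rrm2 was at 26.7 and 15.6 and Eno1, a glycolytic enzyme, at 74 and 71.8, below the WT values of 36 and 30.4 and of 132 and 153.

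Targets of a microRNA usually carry its seed match. The match CATTTCA was searched in the longest 3′ UTR that GENCODE lists for each of 10137 tested genes, and 1700 had a site. Genes with a site had a median log2 difference of 0.23 and those without of 0.34; 32.5% and 39.2% were called higher and 15.4% and 14.1% lower. Genes with a site had longer regions, with a median of 2587 against 946 bases. In short, middle and long regions, split into 3 equal groups, the medians with and without a site were 0.37 and 0.46, 0.29 and 0.31, and 0.20 and 0.22.

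Of 20 tested published targets of miR-203, 5 were higher and 5 lower (25% each, against 36.7% and 13.7% of all genes), with medians of -0.12 and -0.14. After scaling 3 were higher and 9 lower, against 22.8% and 22% of all genes, with a median of -0.41 against 0.03. All 20 had a searched region and 13 had a site. The sites of 4 targets are shown, with their flanks and the match in capitals: Dnmt3b, which was higher in KO, Dnmt3a and Snai2, a mesenchymal repressor, which were lower, and Zfp281, which was not called.
Dnmt3b: ataagaaagctgCATTTCAgaaatgcc
Dnmt3a: agtaataatgtaCATTTCAcagtctgg
Snai2: ctgctgccaaacCATTTCAaccaaagg
Zfp281: agggatcttaaaCATTTCAgattgctc
Snai2 was at 15.1 and 12.3 in WT and 9.76 and 6.67 in KO. Zfp281, a zinc finger factor of pluripotent cells with 3 sites, was at 11.2 and 10.8 against 9.97 and 10.4 (-0.10 ± 0.10, adjusted p = 0.42). Ran, a GTPase of nuclear transport, and Birc5 (survivin), which has its place in mitosis, were higher without a site, Ran with 226 and 264 in WT and 603 and 579.8 in KO. Socs3, an inhibitor of cytokine signals, was lower and had a site, with 99.8 and 102 against 61.2 and 67.7.

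Of 25 tested genes within 1 Mb of Mir203 on chromosome 12, 9 were called higher and 3 lower, near the 36.7% and 13.7% of all genes, with a median of 0.23. Ckb, brain creatine kinase at chr12:111669361-111672338, was at 29.3 and 45.7 in WT and 63.2 and 107 in KO. Lower were Pld4 (30.8 and 32.9 against 0.0716 and 0.148), which is on the macrophage list, Tnfaip2 (74.3 and 92.5 against 38.6 and 42.3), which responds to inflammatory signals, and the small nucleolar RNA Snora28. The closest tested gene, 2010107E04Rik, was at 354 and 342 in WT and 485 and 426 in KO.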

How the data were processed

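The deposited table holds FPKM values that the authors computed; per the labels' protocols the RNA was selected for poly(A) and the kit keeps strand. The submitters' processing notes list Cufflinks 2.2.1, TopHat2 2.0.10, SAMtools 0.1.16, Bowtie 1.0.0 and FastQC, and GRCm38/mm10 as the build. Neither the annotation nor the read depth is known, so no counting interval was computed. The table had 38756 lines; 41 lines that repeated 1 of 19 identifiers were summed. Of 38734 identifiers 37428 (96.6%) matched GENCODE M21, which gave positions and untranslated regions.

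Values were analysed as log2(FPKM + 1), which understates changes of weakly expressed genes. Genes with FPKM of at least 5 in 1 of the 4 libraries were fitted with limma 3.58.1 (R 4.3.3) with day and genotype as terms, moderated variances that follow the mean level, 2-sided tests and Benjamini-Hochberg adjustment over all 11202 genes. That leaves 1 residual degree of freedom, shared over genes. Pairing by day is part of this fit, as the labels give the day of each library. The late against the earlier difference was fitted to 10 libraries with stage as a term. The fit was also run on simulated data, whose outcome is not given here and is no support for the calls. Alternatives changed the pseudocount, filter, scaling, variance trend, day term and libraries. No group had a second library, so a p-value measures the spread of the genotype difference between days or stages only.

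The members, the 38 gene lists and the motifs were chosen with earlier results of these data known. Named genes are the 12 largest mean differences each way among called genes, besides list members and the neighbours of Mir203. Predicted genes, clones, genes named only by a sequence identifier, pseudogenes and small RNAs were left out of the 12. Lists have no test of their own. Listed genes not in the table were not analysed here. Tested genes include 461 of small RNA classes, which the RNA preparation captures poorly.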

Additional observations from a re-analysis of the deposited data

Results flagged for a closer look

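For 16 of the 24 named genes the KO-WT difference at days 6 and 7 was apart from that at MEF, day 0 and day 4 by limma. The genes were chosen for their large late differences, which this contrast uses again, so the values are a description. The late minus earlier difference (log2) was 5.85 for Krt18, 5.78 for Mylpf, 5.36 for Lypd2, 5.16 for Cnfn, 5.08 for Cldn4 and 4.90 for Slurp1. It was 4.82 for Syt8, 4.80 for Sprr1a, 4.75 for Cldn6, 4.71 for Klk10, 4.68 for Aqp5 and 4.20 for Psca. Among the macrophage genes it was -3.89 for Emr1, -3.52 for Ms4a7, -3.27 for Ms4a6d and -2.45 for Ctss; the other 8 lower genes did not pass, with adjusted p from 0.057 to 0.21.

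In 2 lists the median difference changed sign between the days, which was not tested. Smooth muscle genes had medians of -0.13 at day 6 and 0.03 at day 7. Muscle, cartilage, bone and fat markers, 6 tested genes with Mylpf among them, had medians of -0.19 and 0.23.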

How the results depend on the processing

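The count of 5641 genes called between KO and WT was 4847 to 6071 under 9 alternatives: a pseudocount of 0.1, a mean FPKM of at least 1 as the filter, quantile, median-of-ratios and upper-quartile scaling, no variance trend, no pairing by day (no day term, 5902), and fits to 10 or 15 libraries. Without a filter 2946 of 22786 genes were called; the cause was not tested. Leaving out each late library in turn from the 10-library fit gave 426 (without KO day 7), 684 (WT day 7), 1355 (KO day 6) and 1379 (WT day 6) genes; the lone library is then assumed to vary like the others. The late against the earlier difference had 4450 calls, 3990 to 4680 under 7 alternatives, and 161 to 5324 with each library left out. Quantile scaling gave 2420 higher and 2427 lower genes. The 24 named genes kept their direction in all 7 alternatives; Mylpf lost its call under 3 of them (adjusted p of 0.051 to 0.06) and Slurp1 in the 15-library fit (adjusted p = 0.069), both by limma. List medians that changed sign were those of muscle, cartilage, bone and fat markers (-0.19 at day 6 alone, -0.43, -0.23 and -0.21 under quantile, median-of-ratios and upper-quartile scaling), of p53 barrier genes (-0.09, -0.12 and -0.09), of sex-linked markers (-0.24, -0.16 and -0.13) and of smooth muscle genes (0.03 at day 7 alone). With 1 library per group and unknown depth, neither culture nor counting error can be given.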
